A study of Mus musculus with 12 samples.

Results

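The proteasome subunit genes were followed in 12 RNA-seq libraries from mouse kidney. A gene was taken where its Ensembl identifier has a row in both deposited tables and maps to a protein-coding symbol that starts with Psma, Psmb, Psmc, Psmd or Psme and ends in a number. The rule found 43 of the 35536 genes listed in either table. Psmb8, Psmb9 and Psmb10 encode the 3 immunoproteasome subunits and are given apart from the other 40 members.

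The kidneys came from mice with acute injury brought on by a contrast agent. All 4 groups of 3 male mice, 8 weeks old, passed through the same course: 1 kidney was removed, 3 weeks of recovery followed, water was withheld for 24 h, and the loop diuretic furosemide was given 20 min before the iodinated contrast agent iodixanol, with the remaining kidney taken 24 h after the contrast. A first set, batch 1 in the labels, compares wild-type C57BL/6 mice with Padi4 knockout mice, which lack PAD4, a peptidylarginine deiminase needed for the extracellular traps of neutrophils. A second set, batch 2, compares its own wild-type mice with mice labelled Il33 knockout, IL-33 being an alarmin cytokine. The labels name no allele, no cell type of deletion and no strain background for the knockouts, and no uninjured kidney was analysed here.

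The proteasome is the protease that degrades proteins tagged with ubiquitin. Its 20S core is a barrel of alpha rings, which gate the entrance, around beta rings, which hold the cutting sites of Psmb5, Psmb6 and Psmb7. The 19S cap, made of a base with ATPases (Psmc genes) and a lid, binds ubiquitin chains, removes them and threads the substrate into the core. Interferon replaces the cutting subunits by Psmb8, Psmb9 and Psmb10, and the PA28 and PA200 activators (Psme genes) can take the place of the cap. The transcription factor NRF1 (Nfe2l1) raises subunit genes together when the proteasome is overloaded, and injured kidney tubule cells use the system to clear damaged proteins.

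Values are the deposited FPKM, which scale the fragments of a gene to its transcript length and to the mapped total of the library. Summed FPKM ran from 700601 to 812981 in the first set and from 385124 to 420279 in the second, and mitochondrially encoded genes made up 52.0% to 60.0% and 24.1% to 29.2% of it, so levels are not compared between the sets. Padi4 fell in the PAD4 knockout: its libraries held 0.217, 0.497 and 0.187 FPKM against 0.704, 1.06 and 1.67 in wild type, without overlap (adjusted p 0.0147), a call that ended without knockout library 3 (adjusted p 0.0548) or wild-type library 3 (0.0797). Il33 held 1.14, 0.616 and 1.02 FPKM in its own knockout and 1.71, 1.13 and 3.64 in wild type, groups that overlapped (adjusted p 0.0990, 0.0348 without wild-type library 2 and 0.0395 under quantile normalization), so these libraries are called the libraries labelled IL-33 knockout. In the first set Il33 had 4.05 ± 1.09 FPKM in wild type (SD, n = 3) and fell to 1.25 ± 0.347 in the PAD4 knockout (adjusted p 0.00208). In the second set 12 kidney tubule markers summed to between 11793 and 18563 FPKM, of which the single gene Kap made up 67.7% to 87.6%, and the other 11 summed to 1993 to 4451. Of the 14 colon markers with a row there, 9 had a mean under 0.1 FPKM, yet their sum was 21.0 to 42.0 FPKM in wild type and 6.12 to 8.29 in the knockout, carried mainly by Lgals4 at 18.8, 39.1 and 20.5 against 3.26, 4.02 and 3.91 FPKM, and Fcgbp reached 5.06 FPKM in wild-type library 3. In the first set, markers of other tissues stood beside the kidney markers: 20 colon markers summed to 650 to 983 FPKM in wild type and 135 to 309 in the PAD4 knockout, and 10 lung markers to 296 to 847 and 42.6 to 208.

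Most 20S and 19S genes were lower in the libraries labelled IL-33 knockout. Of 40 members outside the immunoproteasome, 38 reached the level tested, a mean of 0.5 FPKM over the 6 libraries of a set. The 2 others, Psma8, a testis form of an alpha subunit, and Psmb11, the thymus form of a cutting subunit, stayed at or under 0.0839 FPKM in all 12 libraries. Of the 38, 20 fell, 1 rose (Psme4) and 17 did not pass the test (limma on log2(FPKM + 1), Benjamini-Hochberg adjusted p under 0.05 over 14513 genes). Over all genes tested, 16.8% were lower and 22.2% higher. The median change of the 38 members, knockout minus wild type in log2(FPKM + 1), was -0.29, against 0.04 over all genes. In 28 members every knockout library lay below every wild-type library, and in 2 every one lay above; over all genes these shares were 24.3% and 30.2%. Together the 38 members and the 2 low ones made up 0.521%, 0.523% and 0.530% of non-mitochondrial FPKM in wild type, and 0.415%, 0.428% and 0.416% in the libraries labelled IL-33 knockout. In bulk tissue, fewer cells of a type and less RNA per cell cannot be told apart.

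The count of 20 rested in part on each knockout library. It was 13 without knockout library 1, 15 without library 2 and 12 without library 3, and 19 to 21 without any 1 wild-type library. The lower calls over all genes dropped too, from 2445 to 1554, 1691 and 1609 without knockout library 1, 2 and 3. Other scalings of the libraries gave 15 (TPM) to 23 (median of ratios). The lower calls over all genes moved the same way, to 2013 under TPM and 2997 under median-of-ratios scaling. Psma5, Psma6, Psma7, Psmb4, Psmb5, Psmc1, Psmd2, Psmd4, Psmd7, Psmd8, Psmd11 and Psmd12 were called lower under all 17 settings tried. The calls on the other 8 (Psma1, Psma2, Psma3, Psmb3, Psmd1, Psmd10, Psmd13 and Psmd14) ended without at least 1 of the knockout libraries, with adjusted p between 0.0532 and 0.123. Psmd1 also lost its call without wild-type library 1 (adjusted p 0.0530) or 3 (0.0531), while Psmb2 (0.0303) and Psmc4 (0.0439) passed without wild-type library 1.

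**Figure D1:**
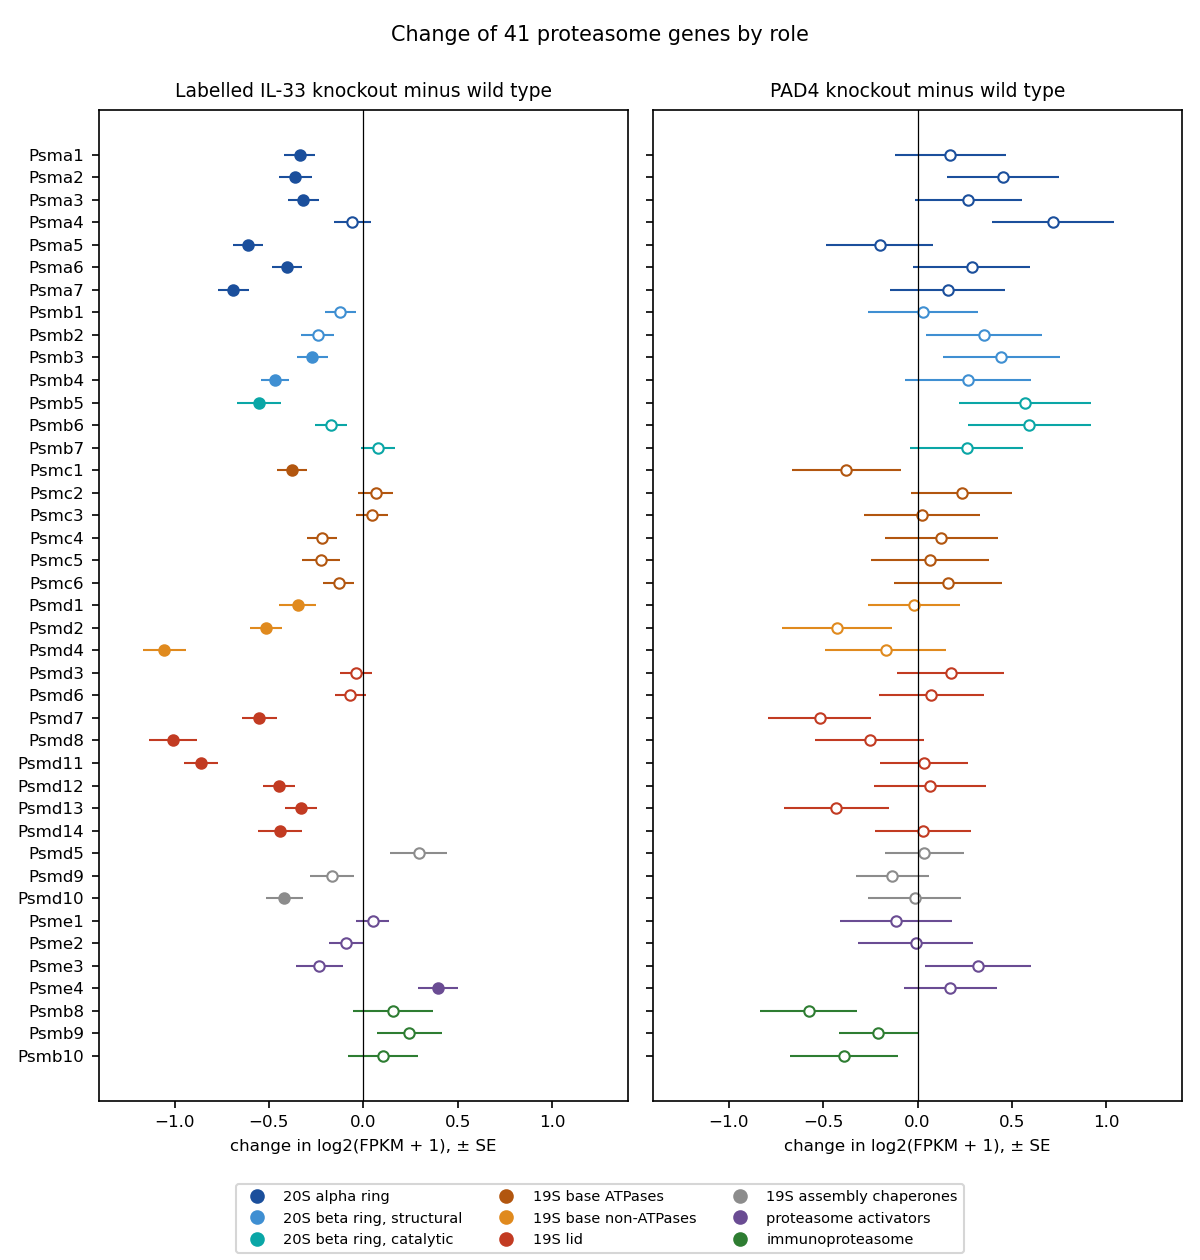
Change of the 41 tested members in the libraries labelled IL-33 knockout (left) and in the PAD4 knockout (right), each against the 3 wild-type libraries of its own set. The x axis is the difference in mean log2(FPKM + 1), bars are 1 SE, filled points passed the test and open points did not; the filled points on the left are 20 below zero and Psme4 above it, and no point on the right is filled.

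The largest falls were in the 19S cap. Psmd4 (ENSMUSG00000005625), the ubiquitin receptor also known as Rpn10, held 60.0, 67.7 and 51.7 FPKM in wild type and 27.8, 29.6 and 27.0 in the libraries labelled IL-33 knockout. All 3 knockout values were under every wild-type value and averaged 47.0% of wild type, a change of -1.05 ± 0.11 (SE) (adjusted p 0.000413). The lid subunit Psmd8 (ENSMUSG00000030591), or Rpn12, held 85.9, 61.3 and 76.5 FPKM in wild type against 36.5, 37.0 and 35.2, a change of -1.01 ± 0.13 (SE) (adjusted p 0.000825). Its wild-type libraries spread over a wider range than its knockout libraries, and the groups did not overlap.

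Sequence upstream of the start sites is shown for Psmd4 and Psmd8, the members with the largest falls, for the cutting subunit gene Psmb5, and for the immunoproteasome gene Psmb8, which did not pass. The windows are the 120 bases before the transcription start from RefSeq (GRCm38.p6), written 5′ to 3′ on the gene's strand, with matches to the motifs searched in capitals.
Psmd4, chr3:95042615-95042734, minus strand: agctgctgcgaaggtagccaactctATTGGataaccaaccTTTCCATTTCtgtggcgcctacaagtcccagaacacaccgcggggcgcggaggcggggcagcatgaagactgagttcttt
Psmd8, chr7:29180674-29180793, minus strand: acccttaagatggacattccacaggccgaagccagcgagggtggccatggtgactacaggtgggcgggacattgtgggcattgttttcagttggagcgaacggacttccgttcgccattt
Psmb5, chr14:54617996-54618115, minus strand: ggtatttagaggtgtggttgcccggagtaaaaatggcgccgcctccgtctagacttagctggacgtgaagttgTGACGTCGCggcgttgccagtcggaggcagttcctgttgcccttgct
Psmb8, chr17:34198075-34198194, plus strand: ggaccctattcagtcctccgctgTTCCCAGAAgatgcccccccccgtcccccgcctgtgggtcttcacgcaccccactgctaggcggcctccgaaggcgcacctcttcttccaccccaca
The motifs, searched on both strands, were TGACNNNGC (the core of the antioxidant response element, read by NRF1 and NRF2), CCAAT (the box bound by NF-Y), the interferon-stimulated response element and TTCNNNGAA (the gamma-activated site). Psmb5 holds TGACGTCGC, Psmb8 holds TTCCCAGAA, and Psmd4 holds the CCAAT box on the opposite strand (ATTGG) and a match to the interferon element on that strand (TTTCCATTTC), which do not overlap. The Psmd8 window holds none of the 4.

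RefSeq promoters, which run from 250 bases before to 50 after the start, were matched to 36 of the 43 members. The antioxidant response core was in 6 of the 33 matched members outside the immunoproteasome, 2 of the 19 that fell and 4 of the 13 tested that did not fall, and in 13.99% of the 27025 genes with a promoter. The CCAAT box was in 13 of 33, 10 of the 19 that fell and 2 of the 13 that did not, and in 41.06% of all genes. The interferon element was in 4 of 33 (3.993% of all genes) and in none of the 3 immunoproteasome genes. The gamma-activated site was in 1 of 33 and in 1 of the 3 immunoproteasome genes, Psmb8 (9.554% of all genes). These are matches of letters in this window and were not tested.

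In the alpha ring, 6 of 7 tested genes fell, with a median change of -0.36. Psma7 (ENSMUSG00000027566) held 45.6, 43.0 and 44.0 FPKM in wild type and 26.0, 28.6 and 26.5 in the libraries labelled IL-33 knockout, a change of -0.69 ± 0.08 (SE) (adjusted p 0.000655). Psma5 held 41.2, 38.8 and 39.5 FPKM against 26.0, 25.5 and 25.8, a change of -0.61 ± 0.08 (SE) (adjusted p 0.000874). Within each of these groups the libraries lay within a few FPKM of each other, and the groups stood well apart. Psma1, Psma2, Psma3 and Psma6 fell by less, with changes from -0.41 (Psma6) to -0.32 (Psma3). The exception was Psma4, with 51.3, 58.9 and 48.1 FPKM in wild type against 49.3, 49.3 and 52.7, overlapping groups whose change had a 95% interval of -0.29 to 0.17.

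Of the 4 structural genes of the beta ring, 2 fell. Psmb4 dropped from 100.4 ± 1.30 to 72.4 ± 1.20 FPKM (SD, n = 3), a change of -0.47 ± 0.07 (SE) (adjusted p 0.00225). Its 3 wild-type libraries lay between 99.1 and 102 FPKM and its knockout libraries between 71.3 and 73.7. Psmb3 changed by -0.27 ± 0.08 (SE) (adjusted p 0.0328). Psmb2, at -0.24 (adjusted p 0.0598), and Psmb1, at -0.12 (adjusted p 0.268), did not pass, although all 3 knockout libraries were under wild type for both.

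The 3 cutting subunits did not move as a block. Psmb5 (ENSMUSG00000022193), the chymotrypsin-like site and the target of bortezomib, had the highest FPKM of all members in both sets. It held 208, 252 and 196 FPKM in wild type and 138, 160.4 and 146 in the libraries labelled IL-33 knockout, a change of -0.55 ± 0.12 (SE) (adjusted p 0.00807). Psmb6, the caspase-like site, held 52.5, 57.0 and 50.8 FPKM against 48.3, 48.4 and 45.2; the groups did not overlap, yet the change of -0.17 did not pass (adjusted p 0.145). Psmb7, the trypsin-like site, held 24.2, 24.9 and 22.1 FPKM against 24.0, 26.6 and 24.5, with overlapping groups and a 95% interval of -0.13 to 0.29. Whether the changes of these 3 genes differ from each other was not tested.

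**Figure D2:**
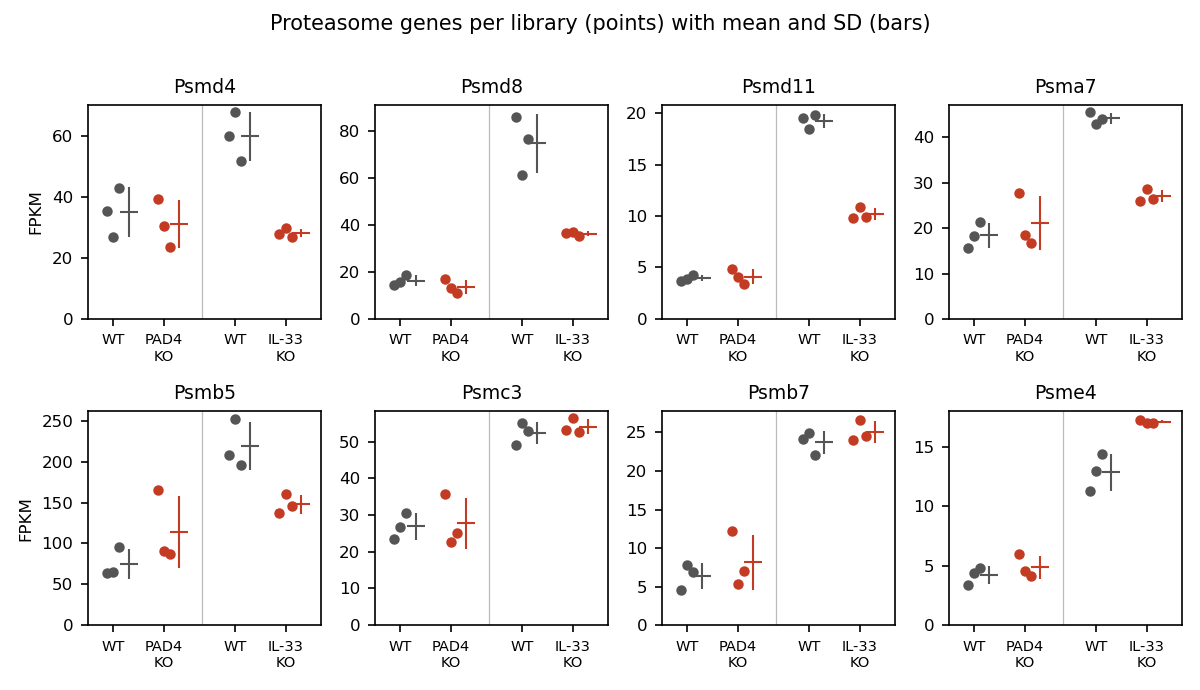
FPKM in every library (points) with the group mean and SD (bars) for 8 members, with the PAD4 set left and the IL-33 set right of the grey line in each panel; levels are not comparable across that line. In the IL-33 set the knockout points of Psmd4, Psmd8, Psmd11, Psma7 and Psmb5 lie below all wild-type points, those of Psme4 lie above, and those of Psmc3 and Psmb7 overlap wild type.

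In the 19S base, 1 of 6 ATPase genes and all 3 of the other subunits fell. The ATPase Psmc1 (Rpt2) went from 66.0, 64.8 and 64.9 FPKM in wild type to 48.4, 52.8 and 48.8, a change of -0.38 ± 0.08 (SE) (adjusted p 0.00783). The changes of the other 5 ran from -0.23 (Psmc5, adjusted p 0.110) to 0.07 (Psmc2, adjusted p 0.602). Psmc2 held 13.05, 13.4 and 15.1 FPKM in wild type against 14.4, 14.7 and 14.5, and these ranges overlapped. Of the subunits beside the ATPases, Psmd4 is described above. The scaffold Psmd2 (Rpn1) stood at 57.8, 58.6 and 64.9 FPKM against 41.1, 43.3 and 41.2, a change of -0.52 ± 0.08 (SE) (adjusted p 0.00260). The scaffold Psmd1 (Rpn2) changed by -0.35 ± 0.10 (SE) (adjusted p 0.0272).

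In the 19S lid, 6 of 8 genes fell. Psmd11 (ENSMUSG00000017428), or Rpn6, held 19.5, 18.5 and 19.8 FPKM in wild type and 9.84, 10.9 and 9.88 in the libraries labelled IL-33 knockout. It had the smallest p of the 38 members, with a change of -0.86 ± 0.09 (SE) (adjusted p 0.000370), and its groups stood far apart. Psmd14, the metalloprotease that cuts the ubiquitin chain off the substrate, held 20.4, 17.2 and 22.2 FPKM against 14.5, 15.2 and 13.3, a change of -0.44 ± 0.12 (SE) (adjusted p 0.0204). Psmd7, the partner of Psmd14, held 37.1, 41.3 and 43.6 FPKM against 26.7, 28.9 and 26.7, a change of -0.55 ± 0.09 (SE) (adjusted p 0.00310). Both genes of this enzymatic pair were under wild type in all 3 knockout libraries. Psmd12 and Psmd13 changed by -0.45 and -0.33. Psmd3 and Psmd6 did not pass, at -0.04 (adjusted p 0.743) and -0.07 (adjusted p 0.543), and their groups overlapped.

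Among the chaperones that build the base, Psmd10 (gankyrin) fell, from 14.1 ± 0.830 to 10.3 ± 0.730 FPKM (SD, n = 3; change -0.42 ± 0.10 (SE), adjusted p 0.0122). Psmd9 did not pass, at -0.17 (adjusted p 0.288). Psmd5 lay above wild type in all 3 knockout libraries, at 7.83, 7.20 and 7.41 FPKM against 4.52, 6.63 and 6.87, but did not pass (change 0.29 ± 0.15 (SE), adjusted p 0.161).

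The activators gave the single rise. Psme4, which encodes PA200, held 11.3, 12.96 and 14.4 FPKM in wild type and 17.3, 17.1 and 17.1 in the libraries labelled IL-33 knockout, a change of 0.39 ± 0.11 (SE) (adjusted p 0.0220). Its 3 knockout libraries were nearly equal and above every wild-type library, but the call ended when any 1 of them was left out (adjusted p 0.0721 to 0.0819). The PA28 genes did not pass. Psme1 held 22.02, 24.8 and 22.5 FPKM against 23.8, 24.3 and 23.7, with a 95% interval of its change of -0.15 to 0.25. Psme2 held 16.6, 14.4 and 15.2 FPKM against 13.9, 15.0 and 14.2 (95% interval -0.31 to 0.12), and its values are uncertain because the near-copy Psme2b was listed at 8.16 to 16.5 FPKM over the 12 libraries. The nuclear PA28 gamma gene Psme3 held 32.04, 31.5 and 42.3 FPKM against 30.0, 28.9 and 30.0 (change -0.23, adjusted p 0.171).

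Across the 38 members, the change in this set went with the level in wild type (Pearson's r = -0.46, Spearman's rho = -0.46), a description of genes that share the same 6 libraries, in which the wild-type values enter both measures. Annotated genes on the opposite strand overlap 18 of the 43 members, and genes on the same strand overlap 8. Among the members that fell, those that overlap another protein-coding gene are Psma2 (AW209491, same strand), Psmd1 (Htr2b and Gm21972) and Psmd13 (Sirt3). Whether strand was used when reads were assigned is not given in the sources used here.

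In the PAD4 knockout no member passed the test. Of the 38, 0 fell and 0 rose in the limma fit over 13986 genes, in which 8.79% of all genes were lower and 8.89% higher. Only 1 member, Psma4, was under an unadjusted p of 0.05, and the share of all genes under it was not computed. The median change was 0.07, against 0.02 over all genes, with a range from -0.52 (Psmd7) to 0.72 (Psma4). Changes were below zero for 12 of the 38. In 2 members, Psmd7 and Psmc1, every knockout library lay below wild type, and in 1, Psma4, every one lay above; over all genes these shares were 15.8% and 17.2%. Other scalings made calls here: median-of-ratios scaling called 2 lower (Psmd7 and Psmd13) and 1 higher (Psma4), and quantile normalization called 4 lower (Psmd7, Psmd2, Psmc1 and Psmd13). Over all 13986 genes the first scaling called 1610 lower and 1823 higher, and the second called 1786 lower and 1916 higher.

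The libraries of the PAD4 set spread more widely than those of the IL-33 set. The median coefficient of variation of the 38 members was 19.5% in wild type and 22.4% in the PAD4 knockout, against 5.93% and 3.27% in the other set. PAD4 knockout library 1 was the highest of 6 for 25 of the 38 members, and wild-type library 1 was the lowest for 25. Members made up 0.166%, 0.198% and 0.237% of non-mitochondrial FPKM in the wild-type libraries and 0.282%, 0.210% and 0.183% in the knockout libraries. The 2 groups therefore overlapped, and the median change went from 0.07 to -0.05 without knockout library 1 and to -0.01 without wild-type library 1. The median over all genes moved as well, from 0.02 to -0.06 and to -0.07 in the same 2 fits.

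**Figure D3:**
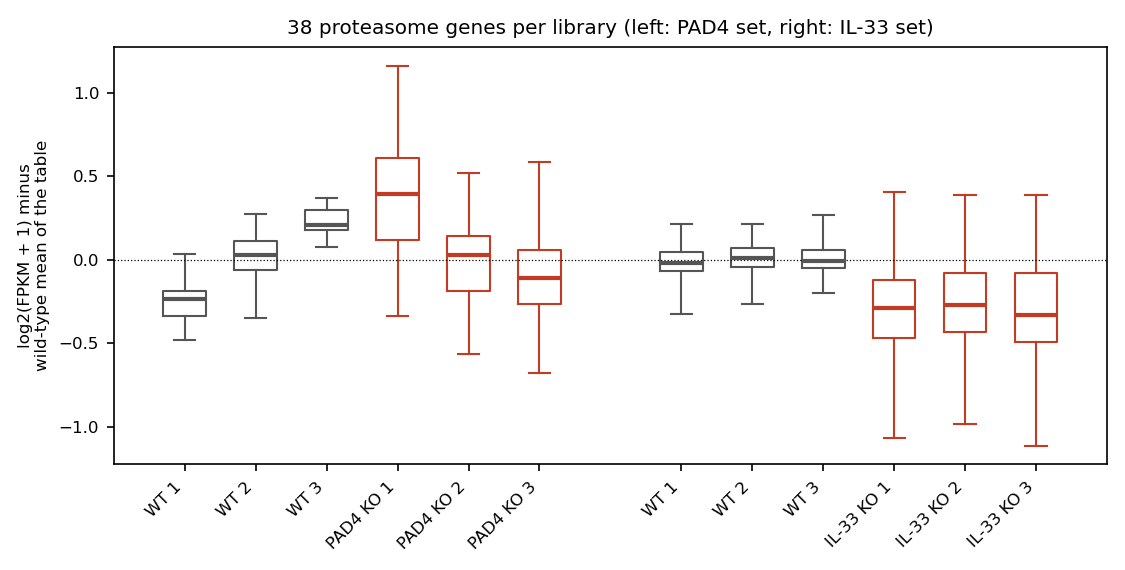
Distribution over 38 members of log2(FPKM + 1) minus the wild-type mean of the same set, by library; boxes span the quartiles with the median as a line, and whiskers reach the lowest and highest member. The 3 boxes of the libraries labelled IL-33 knockout lie below zero, while the medians of the PAD4 set run from -0.24 to 0.21 in wild type and from -0.11 to 0.39 in the knockout.

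No 20S or 19S gene passed in the PAD4 knockout. The median change was 0.28 over 14 tested 20S genes and 0.03 over 17 19S genes, with 13 and 10 changes above zero. Both medians moved with single libraries: they were 0.11 and -0.12 without knockout library 1, with 8 and 4 changes above zero, and 0.13 and -0.07 without wild-type library 1. The median over all genes was 0.02 with all libraries, -0.06 without knockout library 1 and -0.07 without wild-type library 1. Psma4 held 17.7, 26.2 and 30.2 FPKM in wild type against 53.0, 33.5 and 36.7 (change 0.72 ± 0.32 (SE), adjusted p 0.136). Psmb5 held 63.6, 65.3 and 95.4 FPKM against 165, 90.4 and 87.6, where knockout library 1 stood far above the rest and the other 2 lay inside the wild-type range (change 0.57 ± 0.35 (SE), adjusted p 0.286). Psmb6 and Psmb7 showed the same high first knockout library, at 58.6, 40.2 and 32.3 and 12.2, 5.28 and 7.01 FPKM, against 23.6, 25.6 and 35.4 and 4.54, 7.78 and 6.91 in wild type (adjusted p 0.230 and 0.614). Psmd7 held 11.3, 15.3 and 14.3 FPKM in wild type against 10.5, 8.82 and 8.22, the lowest change of the set (95% interval -1.09 to 0.05, adjusted p 0.208).

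Psmd4 and Psmd8, the cap genes with the largest falls in the IL-33 set, did not pass here. Psmd4 held 35.3, 26.7 and 43.0 FPKM in wild type and 39.2, 30.4 and 23.7 in the PAD4 knockout, and its change had a 95% interval of -0.84 to 0.50. Psmd8 held 14.3, 15.8 and 18.8 FPKM against 16.9, 13.1 and 10.9 (95% interval -0.85 to 0.35). The metalloprotease gene Psmd14 did not pass either, with 5.36, 6.17 and 7.60 FPKM against 7.52, 6.47 and 5.53 (95% interval -0.51 to 0.56). All 3 pairs of groups overlapped. The 4 activator genes had changes from -0.11 (Psme1) to 0.32 (Psme3), and the 3 base chaperones from -0.13 (Psmd9) to 0.04 (Psmd5).

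Markers of cell and tissue type moved with both comparisons. In the PAD4 knockout 7 of 11 tested kidney tubule markers rose and 0 fell, and the sum over 12 went from 5068 to 8233 FPKM in wild type to 9914 to 25406. Kap made up 93.6% to 97.1% of that sum in every library, and without it the other 11 markers summed to 162 to 325 FPKM in wild type and 288 to 959 in the knockout, ranges that overlapped. In the same comparison 19 of 20 colon markers, 9 of 9 lung markers, 8 of 10 smooth muscle markers and 6 of 9 leukocyte markers fell. In the libraries labelled IL-33 knockout 6 of 12 tubule markers rose and 1, Kap, fell (-0.53), while the sum of the other 11 went from 1993 to 2901 FPKM in wild type to 3808 to 4451. In these libraries 5 of 8 leukocyte markers rose, their sum over 12 genes going from 25.2 to 48.3 FPKM in wild type to 133 to 144. Smooth muscle markers did not pass there (0 of 6), 1 of 3 tested colon markers fell (Lgals4, -2.45), and the goblet cell marker Tff3 was listed at 0 in all 6 libraries. The part of these marker shifts in the values of the proteasome genes was not tested.

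The changes of the 2 sets differed for 1 of the 38 members, Psmd11. The difference, the change in the IL-33 set minus that in the PAD4 set, was -0.89 ± 0.21 (SE) for Psmd11 (adjusted p 0.0136, limma contrast over 13010 genes), which held 3.69, 3.91 and 4.25 FPKM in wild type and 4.87, 4.03 and 3.401 in the PAD4 knockout. Over all genes 6.23% had a lower and 6.18% a higher difference. The call on Psmd11 ended under TPM scaling (adjusted p 0.0707) and when the replicate number was added to the fit (0.0930). Differences were below zero for 32 of the 38, with a median of -0.37 against -0.02 over all genes. Of the 38, 12 were under an unadjusted p of 0.05, and the share of all genes under it was not computed. Psmb5 (-1.12 ± 0.36 (SE), adjusted p 0.0535), Psma7 (-0.85 ± 0.28 (SE), adjusted p 0.0623) and Psmd4 (-0.89 ± 0.31 (SE), adjusted p 0.0787) missed the threshold. Median-of-ratios scaling called 17 members lower in the difference and quantile normalization 13. Over all genes the first moved the split from 804 higher and 811 lower to 1229 and 1877, and the second to 1385 and 1750. The count of members was 3 without PAD4 knockout library 2, and 4 without PAD4 knockout library 3 or without wild-type library 3 of that set. Over all genes 976, 1032 and 920 differences were lower in these fits, in that order. Each set is 1 batch, so the difference of the knockouts and that of the batches cannot be told apart.

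The 3 immunoproteasome genes did not pass in either set. In the IL-33 set Psmb8 held 2.41, 1.78 and 3.78 FPKM in wild type and 3.58, 2.42 and 3.03 in the libraries labelled IL-33 knockout (change 0.16 ± 0.21 (SE), adjusted p 0.584). Psmb9 held 0.931, 0.596 and 1.27 FPKM against 1.37, 0.916 and 1.56 (change 0.24 ± 0.17 (SE), adjusted p 0.296), and Psmb10 held 7.53, 7.19 and 11.4 against 10.1, 7.63 and 10.3 (change 0.10 ± 0.19 (SE), adjusted p 0.687). The groups of all 3 genes overlapped, with 95% intervals of -0.33 to 0.65 for Psmb8, -0.16 to 0.64 for Psmb9 and -0.33 to 0.54 for Psmb10.

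In the PAD4 set Psmb8 held 3.09, 5.80 and 5.66 FPKM in wild type against 2.23, 2.94 and 3.38 (change -0.58 ± 0.26 (SE), adjusted p 0.130). Psmb10 held 8.18, 12.7 and 12.6 FPKM against 6.32, 10.7 and 7.87 (change -0.39 ± 0.29 (SE), adjusted p 0.390), and Psmb9 stood at -0.21 ± 0.21 (SE) (adjusted p 0.552). Of the 9 leukocyte markers tested in this comparison 6 fell, 0 rose, and 1 had a change above zero (0.88) that did not pass. Their part in the values of the immunoproteasome genes, none of which passed, was not tested. Psmb9 lies head to head with Tap1 and overlaps it on the opposite strand, so its reads may be shared. The difference of the 2 changes of Psmb8 was 0.73 ± 0.33 (SE) (adjusted p 0.161, or 0.0497 without wild-type library 1 of the PAD4 set).

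The FPKM of Psmb8 as a percentage of that of Psmb5, the subunit it replaces, was 1.16, 0.708 and 1.93 in the wild-type libraries of the IL-33 set and 2.60, 1.51 and 2.07 in the knockout libraries. In the PAD4 set it was 1.35, 3.25 and 3.86 after loss of PAD4, against 4.86, 8.88 and 5.94 in wild type. The knockout values of this ratio lay below all wild-type values in the PAD4 set and overlapped them in the IL-33 set. For single genes the share below was 15.8% in the PAD4 set, and no such share was computed for ratios. Psmb8 alone overlapped in the PAD4 set. The lowest ratio, 1.35, came from knockout library 1, where Psmb5 stood at 165 FPKM. Psmb9 as a percentage of Psmb6 was 1.41, 3.51 and 4.84 in the PAD4 knockout against 4.92, 6.80 and 5.46, also without overlap. Psmb10 as a percentage of Psmb7 did not follow: it was 52.0, 203 and 112 in the knockout libraries against 180.1, 163 and 183, so that knockout library 2 was the highest of the 6. In the IL-33 set the groups of these 2 ratios overlapped. An exact permutation test of 3 against 3 libraries cannot give a p under 0.1, so none was run.

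**Figure D4:**
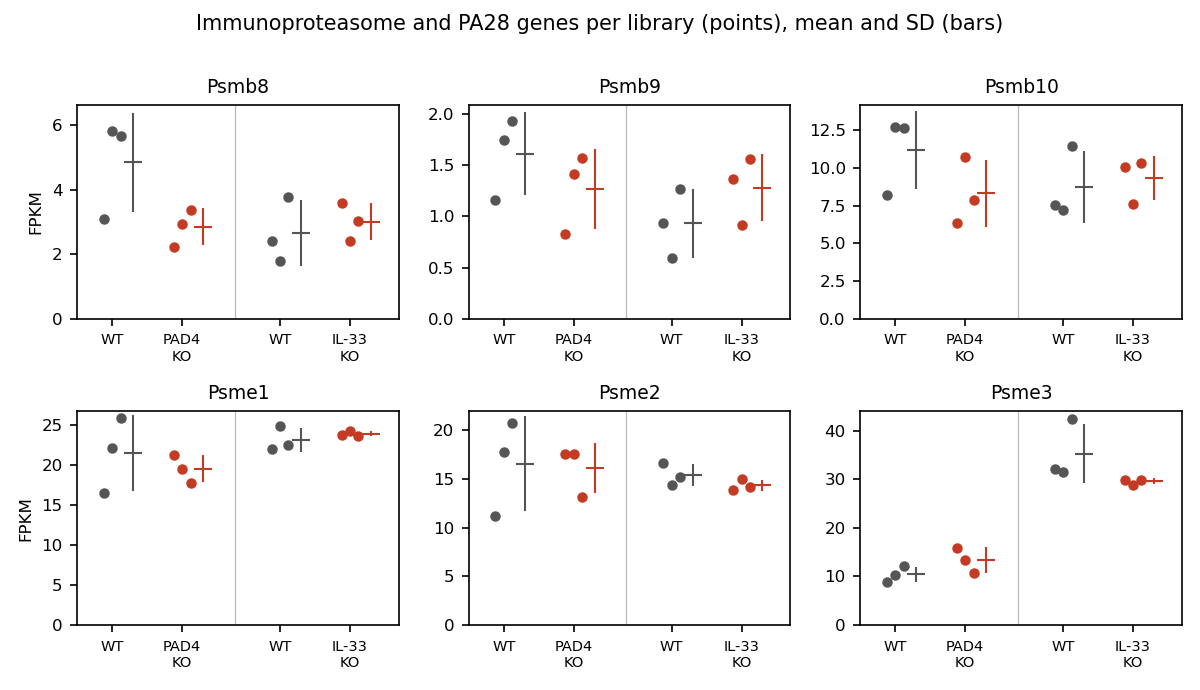
FPKM in every library (points) with mean and SD (bars) for the immunoproteasome genes (top row) and the PA28 activator genes (bottom row), with the PAD4 set left and the IL-33 set right of the grey line. Knockout and wild-type points of Psmb8, Psmb9 and Psmb10 overlap in both sets.

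Genes that act with the proteasome were read from 8 lists. In the libraries labelled IL-33 knockout 18 of their 71 tested genes (25.4%) were lower and 4 (5.63%) higher, against 16.8% and 22.2% of all genes. The lower count was 11 without knockout library 1, and the higher count was 0 without that library, 2 without knockout library 2 or 3 or wild-type library 2, and 8 without wild-type library 3. Over all genes 1554 were lower and 2072 higher without knockout library 1, against 2445 and 3226 with all libraries. The core assembly factors gave 1 rise and 1 fall among 5. Pomp, a chaperone that completes the core, went from 13.02 ± 0.574 to 10.6 ± 0.311 FPKM (SD, n = 3; change -0.27, adjusted p 0.0456). Psmg1, a chaperone of the alpha ring, rose from 11.0 ± 1.18 to 14.8 ± 1.67 FPKM (change 0.40, adjusted p 0.0327). Both calls ended when 1 library was left out: that on Pomp without any 1 knockout library or wild-type library 1 or 2 (adjusted p 0.0628 to 0.166), that on Psmg1 without knockout library 1 or 2 or wild-type library 1 or 3 (0.0660 to 0.133).

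Of 8 proteins that bind the cap or core, 2 fell and 0 rose, a count near the share of all genes that were lower (16.8%). Adrm1, the ubiquitin receptor that docks on Psmd1 and is also called Rpn13, held 31.3, 28.7 and 29.7 FPKM in wild type and 15.9, 18.2 and 16.8 in the libraries labelled IL-33 knockout (change -0.78 ± 0.09 (SE), adjusted p 0.000579). Usp14, a ubiquitin protease of the base, held 7.78, 5.69 and 7.80 FPKM against 4.36, 4.31 and 4.24 (change -0.60 ± 0.13 (SE), adjusted p 0.0101). The knockout libraries of both lay below wild type.

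Of 9 genes of the NRF1 pathway, 3 fell and 0 rose, beside 16.8% lower and 22.2% higher over all genes. Nfe2l1 itself did not pass, with 38.3, 36.9 and 43.5 FPKM in wild type against 40.4, 47.0 and 38.9 (change 0.09 ± 0.11 (SE), adjusted p 0.556). Its relative Nfe2l2, which encodes NRF2, held 64.5, 46.5 and 61.7 FPKM against 24.7, 27.2 and 25.3 (change -1.12 ± 0.13 (SE), adjusted p 0.000633), so that every knockout library was under every wild-type library. Ufd1 and Nploc4, the cofactors with which VCP pulls ubiquitinated proteins out of membranes, changed by -0.57 and -0.57 (adjusted p 0.00266 and 0.00582).

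Of 9 ubiquitin genes and shuttle factors, 2 fell and 0 rose, again near that share. Sqstm1, which encodes the autophagy receptor p62, held 400.4, 275 and 444 FPKM in wild type against 109, 128 and 114 (change -1.64 ± 0.18 (SE), adjusted p 0.000421). Rps27a, a ribosomal fusion that also supplies ubiquitin, changed by -0.42 (adjusted p 0.00626).

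**Figure D5:**
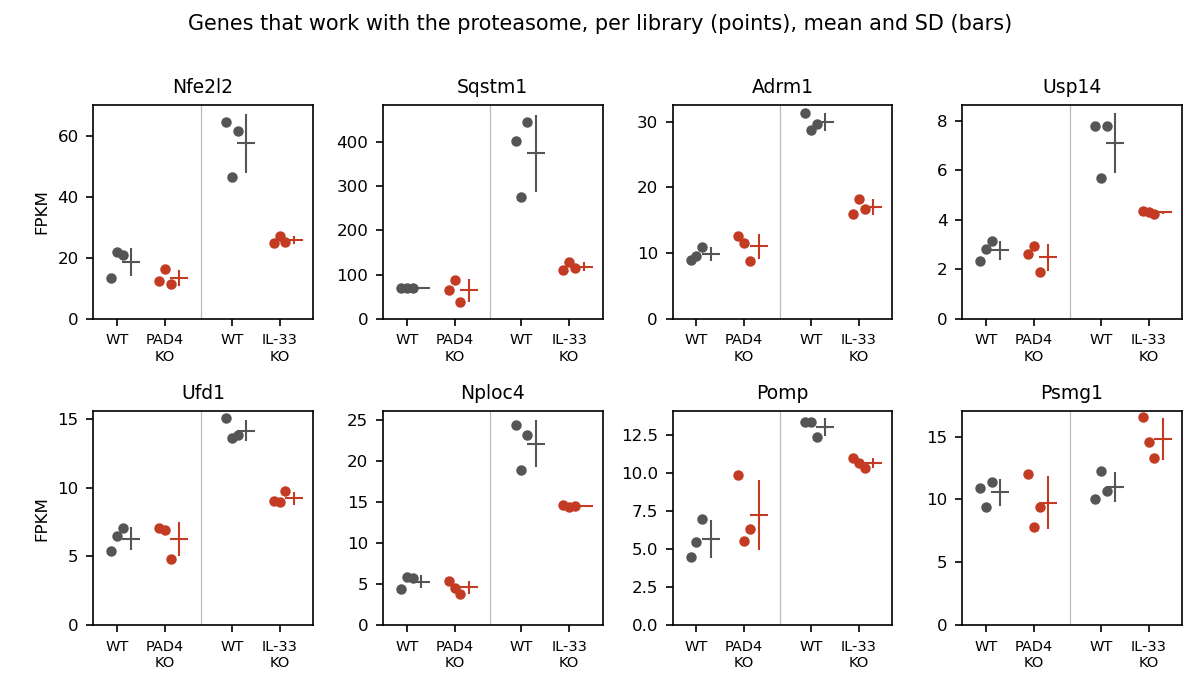
FPKM in every library (points) with mean and SD (bars) for 8 genes that act with the proteasome, with the PAD4 set left and the IL-33 set right of the grey line; levels are not comparable across that line. In the IL-33 set the knockout points lie below all wild-type points for 7 of the genes and above them for Psmg1. All 8 are genes that passed the test there. Knockout lay below wild type for 1 of 5 core assembly factors and 4 of 8 bound proteins. The same held for 4 of 9 NRF1 pathway genes and 3 of 9 ubiquitin and shuttle genes. Over all genes the share below was 24.3% and the share above 30.2%.

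COP9 and eIF3 have an architecture related to that of the lid. These complexes and the CCT chaperonin were read beside the proteasome in the libraries labelled IL-33 knockout. Differences between the lists were not tested. Over all genes in this comparison 16.8% were lower and 22.2% higher. Of the 10 genes of the COP9 signalosome, which removes NEDD8 from cullins, 1 rose (Cops4, change 0.39, adjusted p 0.0156) and 1 fell (Cops5, the catalytic subunit, -0.37, adjusted p 0.0164), with a median of 0.02. The call on Cops4 ended without any 1 knockout library (adjusted p 0.0578 to 0.0827) and that on Cops5 without library 1 (0.0813) or 3 (0.0751). Of the 14 eIF3 genes, which start translation, 6 fell and 0 rose, with a median of -0.24. The 3 with the smallest p were Eif3d (-0.75), Eif3m (-0.49) and Eif3g (-0.49). Eif3b (adjusted p 0.0401) and Eif3e (0.0419) passed close to the threshold, and their calls with 1 library left out are not given here. Of the 7 tested CCT genes, which fold actin and tubulin, 3 fell (Cct2 -0.42, Tcp1 -0.34, Cct3 -0.28), with a median of -0.15. The call on Tcp1 ended without knockout library 1 (adjusted p 0.0549), and that on Cct3 without any 1 knockout library or wild-type library 3 (0.0691 to 0.152).

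Interferon-responsive genes of antigen processing, which the immunoproteasome serves, gave 2 rises and 0 falls among 9 in the libraries labelled IL-33 knockout, the same share as the 22.2% of all genes that were higher. Irf7, a transcription factor of the interferon response, held 1.96, 2.10 and 5.86 FPKM in wild type against 11.2, 7.07 and 8.00 (change 1.27 ± 0.33 (SE), adjusted p 0.0182). B2m, the light chain of MHC class I, held 217, 151 and 220.2 FPKM against 308, 245 and 325 (change 0.58 ± 0.17 (SE), adjusted p 0.0311). Leaving out knockout library 1 ended the calls on Irf7 (adjusted p 0.0652) and B2m (0.0965); Irf7 also lost its call without wild-type library 1 (0.0550) or 2 (0.0578), and B2m without knockout library 3 (0.107) or wild-type library 2 (0.0505). The 5 leukocyte markers that rose moved with these genes, and their part was not tested.

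In the PAD4 knockout none of the 71 tested genes of these 8 lists passed in the limma fit, where 8.79% of all genes were lower and 8.89% higher. Of the 71, 4 were under an unadjusted p of 0.05, and the share of all genes under it was not computed. The gene with the smallest p of each list was Psmg3 (0.41, adjusted p 0.217), Akirin2, which brings proteasomes into the nucleus (0.31, 0.540), Nfe2l2 (-0.44, 0.344), Ubqln4 (-0.24, 0.595), Cops4 (-0.37, 0.280), Eif3f (-0.50, 0.255), Cct5 (-0.52, 0.240) and Irf1 (-0.75, 0.0640). Other settings made calls among them, each lower in the knockout: 6 under median-of-ratios scaling (Cops4, Eif3f, Cct5, Tap1, Tap2 and Tapbp), and 12 under quantile normalization, these 6 with Irf1, Cct4, Eif3b, Eif3c, Eif3i and Eif3m. Those counts were 8.45% and 16.9% of the 71 genes. Over all genes 1610 and 1786 of 13986 were lower under the same 2 scalings. Irf1 alone passed without PAD4 knockout library 2 (adjusted p 0.0101) or with a mean of at least 2 FPKM required (0.0390). Sqstm1 held 69.8, 69.2 and 70.4 FPKM in wild type and 65.5, 88.5 and 38.02 in the PAD4 knockout, where the 3 wild-type libraries were nearly equal and the knockout libraries lay on both sides of them.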

How the data were processed

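The authors deposited FPKM per gene, 1 table per set and 1 column per library, as the headers show; poly(A) selection and strand-specific libraries come from the labels' protocols. Tools named in the submitters' processing notes are cutadapt, FastQC, HISAT2 and StringTie, beside edgeR and DESeq2; the genome build is not given in the sources used here. In the second table the names of the wild-type columns show no genotype; they were matched to the wild-type titles of that set. Low FPKM values fell on no common step (at most 2.84% of ratios in a bin), so depth is unknown and no reads were recovered. Identifiers were mapped to symbols with GENCODE vM21.

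Each knockout was compared with the wild type of its own table with limma 3.58.1 (R 4.3.3; eBayes with a trend) on log2(FPKM + 1), which understates changes of low genes, for genes with a mean of at least 0.5 FPKM, two-sided; p-values were adjusted by Benjamini-Hochberg over the genes tested. The difference of the changes was a contrast over the 4 groups. The scripts were tested on simulated data. Libraries of a group are separate mice per the labels. Same-numbered libraries were checked for pairing and not paired.

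The members and lists were chosen with earlier results of these data known. Values in every library of the IL-33 set are given for the cutting subunits, their immunoproteasome counterparts, the activators, Psmd4 and Psmd14. They are also given there for some, not all, members with the highest or lowest change of a class. In the PAD4 set library values are given for fewer of these members. Psmd11, Psmd7 and other members were named after their values were seen. Of each other list, up to 3 passing genes with the smallest p, or else the 1 with the smallest p, are named; Nfe2l1 was added. A few genes of the partner lists are not reported here and enter no list count. Paaf1 and Cct6a had no matched row and were not analysed here.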

Additional observations from a re-analysis of the deposited data

Results flagged for a closer look

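Differences between the 2 knockout effects were tested by the limma contrast of the change in the IL-33 set minus the change in the PAD4 set. They drew attention to 1 of 38 proteasome genes outside the immunoproteasome and 5 of 71 genes of the partner lists. Over all 13010 genes 6.23% had a lower and 6.18% a higher difference. Values of the 5 partner genes under other settings are not given here. Psmd11, the Rpn6 subunit of the lid, had a difference of -0.89 (adjusted p 0.0136): it fell in the libraries labelled IL-33 knockout and did not pass in the PAD4 knockout, at 0.03. This call ended under TPM scaling (adjusted p 0.0707) and with a replicate block. Adrm1, the Rpn13 ubiquitin receptor, differed by -0.93 (adjusted p 0.0199) and Sqstm1, the p62 receptor, by -1.43 (adjusted p 0.0237). Differences were positive for Cops4 (0.76, adjusted p 0.0246), B2m (1.20, 0.0484) and Irf7 (1.99, 0.00848). The sets are separate batches, so batch and knockout cannot be told apart in these values.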

How the results depend on the processing

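Pseudocounts of 0.1 and 0.5, no filter, a mean of at least 2 FPKM, 4 other scalings, no variance trend, a replicate block and each library left out were tried. In the IL-33 set the number of members that fell was 20 and ranged from 12 to 21 with 1 library left out, and the number that rose was 1 and ranged from 0 to 1. The lower calls over all genes were 2445 and ranged from 1554 to 2662 with 1 library left out. The median change was -0.38 under median-of-ratios scaling, against -0.29, and -0.31 to -0.28 with 1 library left out. The median over all genes of that set was -0.02 under median-of-ratios scaling, against 0.04, and 0.01 to 0.10 with 1 library left out. In the PAD4 set the number that fell became 2 under median-of-ratios scaling and 4 under quantile normalization. The number that rose became 1 under median-of-ratios scaling. Both counts stayed at 0 with any 1 library left out. The lower calls over all genes were 1230 in the main fit, 1610 under median-of-ratios scaling and 1786 under quantile normalization. The median change there was -0.03 under quantile normalization and ranged from -0.05 to 0.21 with 1 library left out. The median over all genes of that set ranged from -0.07 to 0.11 with 1 library left out. For the difference of the changes, the number that fell was 1, became 17 under median-of-ratios scaling, 13 under quantile normalization, 3 with no variance trend, 0 under TPM scaling and 0 with a replicate block, and ranged from 1 to 4 with 1 library left out. Same-numbered libraries did not deviate together (correlations from -0.15 to 0.13), so the numbers name libraries only; the replicate block gave 17 falls and 1 rise in the IL-33 set, 0 and 0 in the PAD4 set, and an adjusted p of 0.0930 for Psmd11 in the difference and of 0.0408 for Il33 in its own knockout. No passing value changed sign, while 87 of 2685 values of single genes changed sign without passing in either setting. With no filter, 0 of 32199 genes were called in the PAD4 set. Depth is unknown from FPKM.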
